A study of Mus musculus with 4 samples.

Results

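The transcription factors Zeb1, Zeb2, Snai1, Snai2, Twist1, Twist2 and Prrx1 were taken by gene symbol from the single-cell count matrices of mouse omental tumors and ascites. Each of the 7 symbols had 1 row in each of the 4 libraries, among 32285 genes in the tumor matrices, 31053 in the ascites matrix and 30406 present in both annotations. The libraries were made from dissociated omental tumors of 1 of the syngeneic cancer lines KPCA.A, KPCA.B or KPCA.C, or from KPCA ascites whose line the labels do not state, all in C57BL6J mice, with an age of 8 weeks given for the tumors and 9 weeks for the ascites. The labels call the cell type of all libraries fallopian tube epithelial cells and state 4 pooled tumors per line. Each line was thus seen in 1 tumor library, and no tumor library represents a single mouse. Whether the ascites was pooled is not stated. The alleles of the lines are not spelled out in the labels. With 1 library per group, no test between groups was possible. Intervals below are 95% intervals that cover counting error only, and statements on levels describe these libraries.

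In an epithelial-mesenchymal transition, epithelial cells lose cell-cell junctions and apical-basal polarity and take on a migratory, matrix-producing state. Zeb1 and Zeb2 are zinc-finger and homeodomain repressors of E-cadherin (Cdh1) and other junction genes, and Snai1 and Snai2 are zinc-finger repressors of the same kind. Twist1 and Twist2 are basic helix-loop-helix (bHLH) factors that pair with E proteins such as Tcf4 and are opposed by Id proteins. Prrx1 is a paired-related homeobox factor of limb mesenchyme and of activated fibroblasts. None of the 7 belongs to carcinoma cells alone, since fibroblasts express several of them and Zeb2 is a regulator of macrophage and lymphoid development.

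Repression by ZEB and SNAIL proteins is known to act through the E-box CACCTG, read as CAGGTG on the other strand. These letters were searched on both strands in the 250 bases before each gene's start, in the RefSeq promoter table of build GRCm38.p6. They were found in 5252 of 27025 genes (19.4%) and in 5657 of all 32851 promoters (17.2%). Of 33 listed epithelial genes, 23 matched the table and 15 of these held the motif (65.2%). Of 29 listed mesenchymal genes other than the 7 factors, 16 matched and 1 held it (6.25%). Among the 7 factors, Zeb2, Snai1, Twist1, Twist2 and Prrx1 matched, and Snai1 alone held it (20%). Zeb1 and Snai2 were not matched.

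The promoters below belong to 4 epithelial genes that were lower in Epcam-low tumor cells and to Snai1. They were chosen after the motif counts were seen, to show how densely the motif is packed in some of them. Capitals mark CACCTG or CAGGTG, and each sequence is written along the gene's own strand and ends at the base before the start. Epcam, the epithelial adhesion molecule, has 2 motifs in chr17:87635729-87635978 on the plus strand. Ap1m2, an epithelial subunit of the sorting adaptor AP-1, has 4 within 81 bases of its start, in chr9:21312334-21312583 on the minus strand. Lsr, a protein of tricellular junctions, has 4 in chr7:30973470-30973719 on the minus strand. Crb3, a polarity protein of the Crumbs complex, has 3 in chr17:57061981-57062230 on the plus strand. Snai1 has 1 at 126 bases before its start, in chr2:167537945-167538194 on the plus strand.

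Epcam: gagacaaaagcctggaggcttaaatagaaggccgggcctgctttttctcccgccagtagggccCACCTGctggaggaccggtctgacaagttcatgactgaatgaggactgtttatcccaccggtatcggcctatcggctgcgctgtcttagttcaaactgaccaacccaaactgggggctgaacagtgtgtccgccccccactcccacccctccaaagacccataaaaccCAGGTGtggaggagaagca
Ap1m2: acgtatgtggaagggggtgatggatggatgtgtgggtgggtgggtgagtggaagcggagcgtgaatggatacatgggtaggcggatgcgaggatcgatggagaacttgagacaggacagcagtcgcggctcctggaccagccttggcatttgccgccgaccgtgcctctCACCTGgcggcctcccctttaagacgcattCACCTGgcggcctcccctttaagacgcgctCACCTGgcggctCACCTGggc
Lsr: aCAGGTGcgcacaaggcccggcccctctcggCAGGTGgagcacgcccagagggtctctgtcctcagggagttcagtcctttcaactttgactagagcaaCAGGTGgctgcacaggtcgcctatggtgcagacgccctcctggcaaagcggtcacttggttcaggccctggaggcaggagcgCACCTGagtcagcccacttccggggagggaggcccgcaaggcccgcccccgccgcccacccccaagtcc
Crb3: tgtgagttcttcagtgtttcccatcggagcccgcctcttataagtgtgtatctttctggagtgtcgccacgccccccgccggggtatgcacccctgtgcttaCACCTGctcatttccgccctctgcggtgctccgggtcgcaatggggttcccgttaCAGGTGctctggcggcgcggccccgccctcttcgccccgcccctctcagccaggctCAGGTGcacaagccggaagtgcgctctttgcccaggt
Snai1: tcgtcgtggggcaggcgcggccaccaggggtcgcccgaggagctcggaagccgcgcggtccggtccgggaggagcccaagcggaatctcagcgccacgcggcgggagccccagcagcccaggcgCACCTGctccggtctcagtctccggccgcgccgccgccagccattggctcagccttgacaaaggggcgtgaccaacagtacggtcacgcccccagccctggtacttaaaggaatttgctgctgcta

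A match is a description of letters and not of binding, and no factor binding was measured here.

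The factors are protein-coding genes in GENCODE vM21 (GRCm38). Zeb1 lies on chromosome 18. Zeb2 lies at chr2:44983632-45117395 on the minus strand, Snai1 at chr2:167538195-167542814, Snai2 at chr16:14705852-14709385, Twist1 at chr12:33957671-33959829, Twist2 at chr1:91801461-91848028 and Prrx1 at chr1:163245119-163313710 on the minus strand. The antisense gene Zeb2os (chr2:45110707-45114087, plus strand) lies within the span of Zeb2, and whether the counting used strand is not given in the sources used here.

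After filtering, 11253 barcodes were kept as cells, between 2586 and 3098 per library, with median depths of 7910 to 14660 unique molecular identifiers (UMIs) in the tumors and 2077 in ascites, and deposited totals of 7420674 UMIs in ascites and 40054369 to 95130645 in the tumors. Of the KPCA.A barcodes 53.1% exceeded the limit of 15% mitochondrial UMIs, against 22.5% and 24.3% in KPCA.B and KPCA.C. Libraries shared between 0 and 16 kept barcodes pairwise, and removing them left all 94 member ratios within their counting error. Cells were clustered on all genes except the 7 factors, and clusters were named by markers as "like" a cell type. Tumor cells (Krt8 and Krt18 at 500 CPM (counts scaled to a total of 1e6 UMIs) or more, Cdkn2a at 200 CPM or more, limits set with the data seen) numbered 743 in KPCA.A, 286 in KPCA.B and 973 in KPCA.C. Ascites held 1 tumor cell, so its label of fallopian tube epithelial cells was not borne out by its markers. A further cluster with tumor keratins but a depth of 0.0955 of its libraries' median was kept apart, with 7.02%, 4.99% and 12.8% of the cells in the 3 tumors, in the order of the lines' letters, and 0.445% in ascites. Levels are UMIs summed over a cell class in a library, in CPM over shared genes. Since 3' UMIs are not scaled by length and capture differs between genes, levels are compared within a gene.

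The first question was how the factors differ between tumor cells of high and low Epcam level in the same library. In KPCA.A, cells of the Epcam-high cluster (156 cells, Epcam at 997 CPM) had lower levels of all 7 factors than the Epcam-low clusters (587 cells, Epcam at 12.9 CPM). KPCA.B had 68 Epcam-high cells at 1374 CPM of Epcam and 218 Epcam-low cells at 52.7 CPM. KPCA.C had only 5 Epcam-high cells against 968 Epcam-low cells at 0.483 CPM, and the split was not made there. A cluster counted as Epcam-high at 100 CPM or more. Epcam level was used to form the groups and is not a result.

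Zeb1 was 94.7 CPM in Epcam-low and 23.0 CPM in Epcam-high cells of KPCA.A, for a ratio of 4.11 (3.52 to 4.83). In KPCA.B it was 103 against 7.12 CPM, a ratio of 14.4 (9.28 to 23.7). The direction was the same in both lines, and in both the counting intervals of the levels were apart. Zeb2 was 159.8 against 15.7 CPM in KPCA.A (ratio 10.1, 8.45 to 12.3) and 86.1 against 6.05 CPM in KPCA.B (14.2, 8.83 to 24.6). The summed level of both ZEB genes was thus several-fold lower in Epcam-high cells.

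Snai2, which encodes Slug, was 22.5 CPM in Epcam-low and 3.44 CPM in Epcam-high cells of KPCA.A (ratio 6.53, 4.41 to 10.1). In KPCA.B it was 11.1 CPM against 0 UMIs, at least 10.4-fold higher when 3 counts are allowed for the group at 0. Snai1, which encodes the short-lived Snail protein, was sparse. It was 6.88 against 0.794 CPM in KPCA.A (ratio 8.67, 3.90 to 24.0, from 6 UMIs in Epcam-high cells). In KPCA.B it was 1.30 against 0.712 CPM, where the ratio of 1.82 (0.398 to 16.9, from 2 UMIs in Epcam-high cells) did not show a direction.

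Twist1, a factor of early mesoderm and neural crest, was 129 against 49.9 CPM in KPCA.A (ratio 2.59, 2.32 to 2.89), and 85.0 against 21.7 CPM in KPCA.B (ratio 3.92, 3.01 to 5.18). Its ratio was the smallest among the factors with at least 50 UMIs in each line. Twist2 was 26.2 against 9.53 CPM in KPCA.A (ratio 2.75, 2.15 to 3.56) and 4.36 CPM against 0 UMIs in KPCA.B (at least 4.09-fold higher). Prrx1, the homeobox factor, was 17.8 against 0.662 CPM in KPCA.A (ratio 27.0, 11.5 to 83.5, from 5 UMIs in Epcam-high cells) and 43.4 against 0.712 CPM in KPCA.B (ratio 61.0, 16.8 to 506, from 2 UMIs).

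A gene was counted as higher or lower where its CPM ratio reached 2-fold and both groups together held at least 50 UMIs. In KPCA.A, 7 of 7 factors were higher in Epcam-low cells, against 8.39% of all genes tested. In KPCA.B the 5 factors with enough UMIs were higher, against 6.95% of all genes tested, and Snai1 and Twist2 had too few UMIs. The factors' median log2 ratio was 1.70 in KPCA.A and 3.04 over those 5 in KPCA.B, where all genes tested had medians of 0.09 and 0.03.

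**Figure D1:**
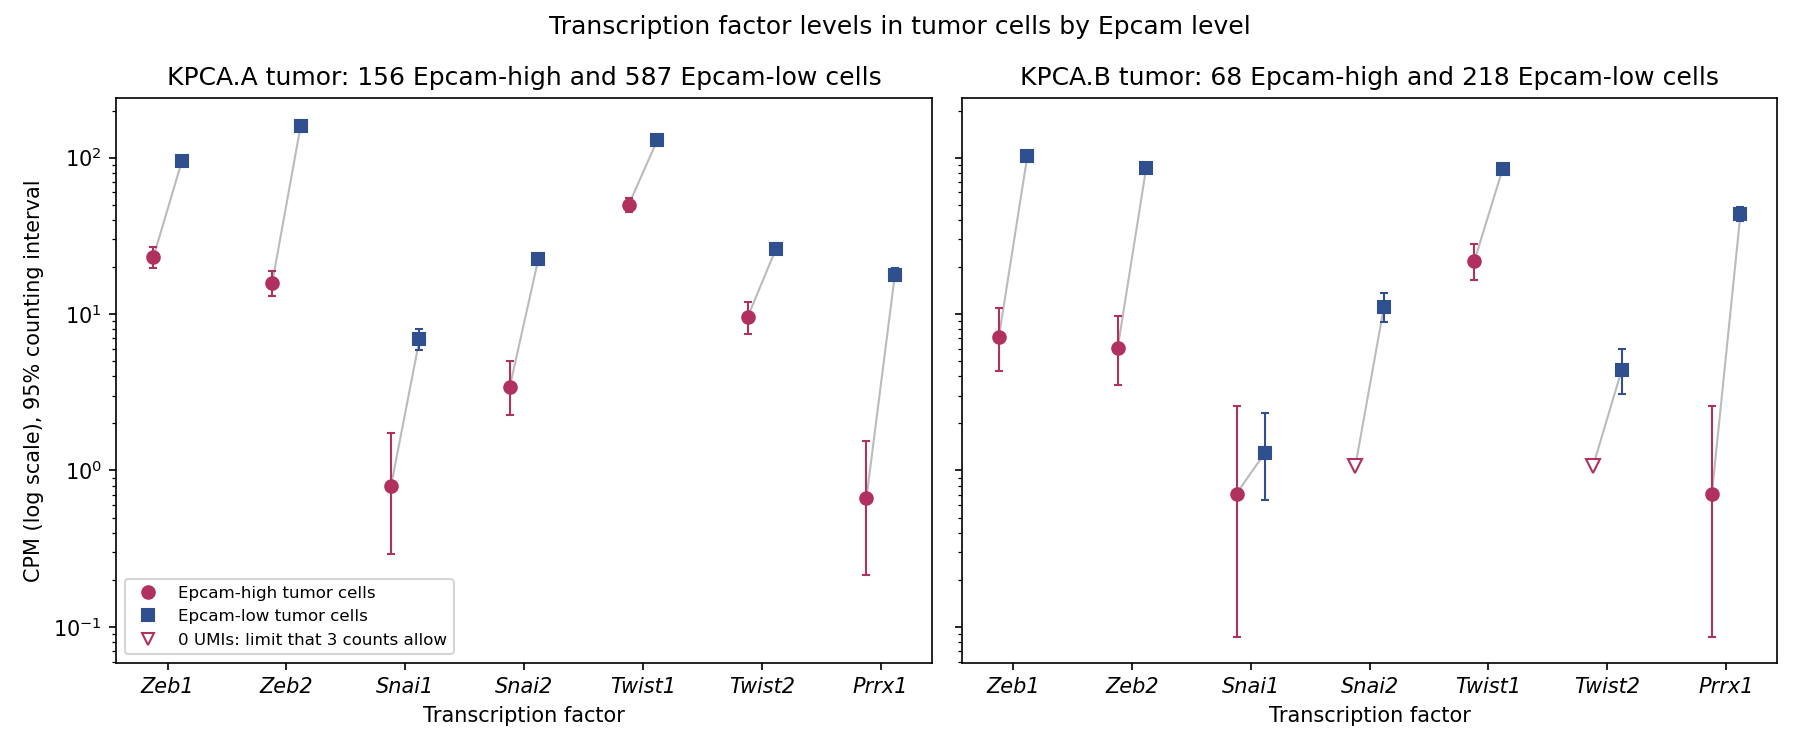
Level of each factor (CPM, log axis) in Epcam-low and Epcam-high tumor cells of KPCA.A and KPCA.B, with bars for the 95% counting interval and a triangle for the limit that 3 counts allow where no UMI was found. Epcam-low cells lie above Epcam-high cells for every factor in both lines, but the intervals of Snai1 in KPCA.B overlap.

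Both groups of tumor cells were deeply sequenced, with median depths of 40295 and 37851 UMIs for Epcam-high and Epcam-low cells in KPCA.A and 33818 and 34169.5 in KPCA.B. The share of cells with at least 1 Zeb1 UMI was 87.2% in Epcam-low and 33.3% in Epcam-high cells of KPCA.A, and 83.5% and 14.7% in KPCA.B. For Zeb2 the shares were 92.7% and 28.8% in KPCA.A, and 69.7% and 11.8% in KPCA.B. To compare with shallower cells, each cell was thinned to 2000 UMIs. Zeb2 UMIs were then found in 26.4% and 16.8% of Epcam-low cells of KPCA.A and KPCA.B and in 4.58% and 3.03% of Epcam-high cells. Epithelial cells of a duct type gave 5.0% (80 cells of KPCA.A, median depth 6862 UMIs), with 6 leukocyte markers at 104 CPM against 48.2 CPM in Epcam-high cells of KPCA.A. The Zeb2 share in Epcam-high cells of KPCA.A was not above that, and is not read here as expression. KPCA.B had too few duct-type cells for the same reading. For Zeb1 the thinned shares were 17.3% and 19.6% in Epcam-low cells, 4.58% and 3.03% in Epcam-high cells and 1.25% in the duct-type cells. For Twist1 they were 24.0% and 11.7% in Epcam-low cells, 9.15% and 1.52% in Epcam-high cells and 0.294% in macrophage-like cells of KPCA.A, where 0 of the KPCA.B macrophage-like cells had a Twist1 UMI. Twist1 in Epcam-high cells of KPCA.A therefore lay above the share in macrophage-like cells of that library. The duct-type cells also held some Twist1 UMIs, and their thinned Twist1 share was not compared here.

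The factors were also counted together in single cells. At full depth, 5 or more of the 7 had a UMI in 38.2% of Epcam-low cells of KPCA.A, 15.6% in KPCA.B and 79.4% in KPCA.C, whose cells were the deepest at a median of 60130.5 UMIs. The same held for 0.641% and 0% of Epcam-high cells of KPCA.A and KPCA.B. After thinning, 80.4% and 92.4% of Epcam-high cells had none of the 7, against 40.5%, 55.6% and 38.7% of Epcam-low cells in the 3 lines in turn. Summed over the 7 genes, Epcam-low cells held 457 CPM and Epcam-high cells 103 CPM in KPCA.A, and 334 and 36.3 CPM in KPCA.B.

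Tumor cells were also split one by one, by whether a thinned cell had an Epcam UMI. In KPCA.A, 621 tumor cells had none and 115 had at least 1, and Zeb1 UMIs were found in 16.9% and 2.61% of them, Zeb2 UMIs in 24.5% and 7.83%. Twist1 UMIs were found in 23.3% and 7.83%. In KPCA.B, with 205 and 75 cells, the shares were 20.5% and 2.67% for Zeb1, 16.6% and 5.33% for Zeb2 and 11.2% and 4.00% for Twist1. Prrx1 UMIs were found in 2.42% and 6.34% of the cells without Epcam UMIs and in none of the cells with one, which allows up to 2.61% in KPCA.A and 4.00% in KPCA.B. Zeb1 in both lines, and Zeb2 and Twist1 in KPCA.A, were thus found in a smaller share of the tumor cells with an Epcam UMI, with intervals apart. In KPCA.B the intervals overlapped for Zeb2 (1.47% to 13.1% with and 11.8% to 22.4% without an Epcam UMI). They also overlapped for Twist1 (0.833% to 11.2% and 7.25% to 16.4%). For Prrx1 the intervals overlapped in both KPCA.A and KPCA.B, so the count of 0 does not show a smaller share in either line. The tumor cells themselves were still those of the tumor clusters. By ratios of thinned shares between the clusters, 4 factors passed 2-fold in KPCA.A and 3 in KPCA.B. By thinned shares with Epcam read per cell, 3 did in KPCA.B. Several factors had no UMI in thinned Epcam-high cells, and the share of all genes past 2-fold was not computed by these measures.

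Signs of other cells were measured beside the split. The sum of 6 leukocyte markers was 48.2 CPM in Epcam-high and 43.98 CPM in Epcam-low cells of KPCA.A, and 109 and 119 CPM in KPCA.B. The sum of 16 dissociation stress genes was 3138 and 3084 CPM in KPCA.A, and 2581 and 2382 CPM in KPCA.B. The sum of 6 fibroblast markers was higher in Epcam-low cells, at 38.8 against 8.07 CPM in KPCA.A and 93.2 against 5.34 CPM in KPCA.B. In KPCA.A the sum came mostly from Dpt (31.1 against 0 CPM), while the fibroblast proteoglycan Dcn was 5.69 against 4.68 CPM. In KPCA.B it came mostly from Dcn (74.9 against 1.42 CPM). Taking Dcn as the measure, fibroblast RNA would amount to 0.206% of the UMIs of Epcam-low cells in KPCA.A, 1.91% in KPCA.B and 7.72% in KPCA.C. Among tumor cells without any UMI of Dcn, Lum, Pdgfra, Col14a1 or Ptprc, 7 factors were higher in KPCA.A and 5 in KPCA.B. The share of all genes past 2-fold was not computed in these cells, so the counts have no background beside them. Dpt was not among the genes filtered on. Over the comparisons of tumor cells by Epcam level and between lines, 34 of 54 factor ratios moved beyond their counting error in such cells.

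Clusters that make up the tumor cells were divided again to see how the factors vary among them, and 23 sub-clusters with at least 20 cells in a library were read. Within the Epcam-high cluster of KPCA.A, Zeb1 was 58.0 CPM where Epcam was 458 CPM (47 cells), 12.1 CPM where Epcam was 985 CPM (67 cells) and 1.79 CPM where Epcam was 1645 CPM (33 cells). Zeb2 did not follow that order, at 23.4, 11.2 and 18.5 CPM, nor did Twist1 at 68.4, 34.5 and 47.6 CPM. Prrx1 was at most 1.79 CPM in all 3. The sub-cluster with the least Epcam therefore had Zeb1 and Twist1 within reach of Epcam-low cells but no Prrx1 UMI.

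In KPCA.B, 111 cells counted as Epcam-low lay in a sub-cluster whose own Epcam level was 125 CPM, since the limit was set on whole clusters. Their levels were 87.5 CPM for Zeb1, 59.9 for Zeb2, 71.0 for Twist1 and 38.1 for Prrx1. A sub-cluster of 46 cells with Epcam at 4.55 CPM had 113 CPM of Zeb1, 95.5 of Zeb2, 100.4 of Twist1 and 46.2 of Prrx1. Snai2 differed most between the pair, at 1.45 and 19.7 CPM. Cells at a middle Epcam level thus had Zeb1 and Prrx1 close to the Epcam-low level and little Snai2.

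**Figure D2:**
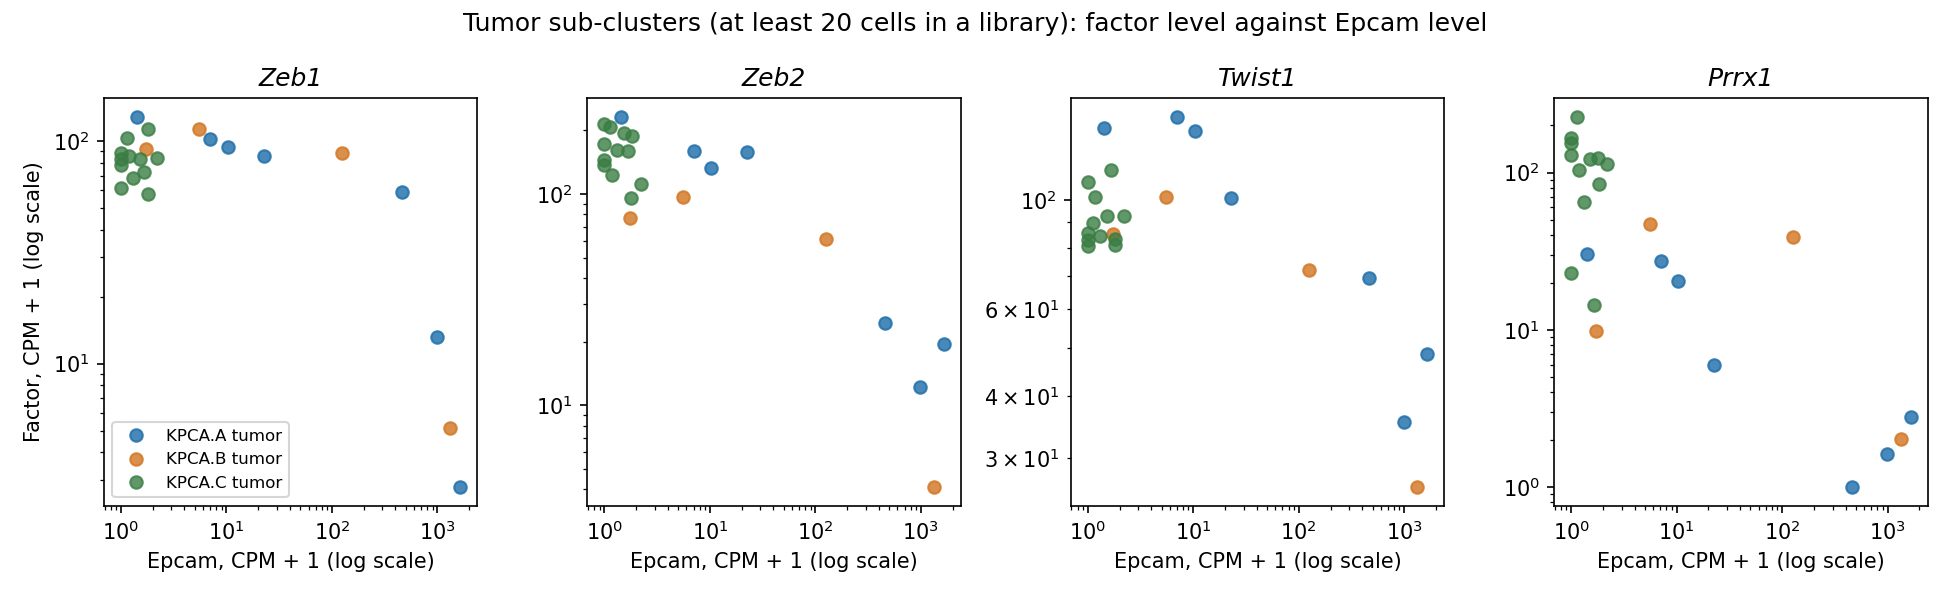
Level of Zeb1, Zeb2, Twist1 and Prrx1 (CPM + 1, log axis) against Epcam (CPM + 1, log axis) in the 23 tumor sub-clusters with at least 20 cells in a library, 1 point per sub-cluster and library. The 4 sub-clusters with the most Epcam lie lowest for Zeb2, Twist1 and Prrx1, and Prrx1 spans the widest range among those with little Epcam.

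Prrx1 and Snai2 also varied among sub-clusters with next to no Epcam. In KPCA.C, Prrx1 was 226 CPM in a sub-cluster of 160 cells, 63.8 CPM in another of 151 and 13.5 CPM in a sub-cluster of 44. Snai2 was 40.4 CPM in the first, 10.8 CPM in a sub-cluster of 87 cells with 154 CPM of Prrx1, and 94.0 CPM in a sub-cluster of 20 with 21.9 CPM of Prrx1. High Prrx1 and high Snai2 were therefore not found in the same sub-clusters in every case. Zeb1 was more even, between 56.8 and 128 CPM over the Epcam-low sub-clusters of the 3 lines.

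The clusters were formed from all genes other than the 7 factors, so the genes below were part of what separated the cells and their differences describe the clusters. Of 32 epithelial genes other than Epcam, 31 had enough UMIs in KPCA.A and 26 were lower in Epcam-low cells, against 6.57% of all genes. In KPCA.B 24 of 29 were lower, against 5.94%, and none was higher in either line. Their median log2 ratios were -2.36 and -2.25. Cdh1, the classical target of these repressors, was 48.2 against 281 CPM in KPCA.A (5.83-fold lower) and 16.7 against 235 CPM in KPCA.B (14.04-fold lower). Ap1m2, shown above with 4 motifs, was 0.0866 against 22.2 CPM in KPCA.A, 257-fold lower (70.0 to 2138), and 92.0-fold lower in KPCA.B. Rab25, a GTPase of apical recycling, was 127-fold and 82.5-fold lower. Krt18 and Tjp1 were nearly level, with ratios of 0.674 and 0.833 in KPCA.A and 0.820 and 1.02 in KPCA.B. Without Epcam, 11 of 14 epithelial genes with the motif and 5 of 7 without it were lower in each line, so genes of both kinds were mostly lower.

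Of 29 mesenchymal genes other than the factors, 21 of 24 with enough UMIs were higher in KPCA.A, against 8.39% of all genes, and 17 of 22 in KPCA.B, against 6.95%, with median log2 ratios of 1.84 and 2.61. S100a4, a calcium-binding protein of motile cells, had ratios of 24.2 and 21.1, and Pdgfrb, a mesenchymal growth factor receptor, 24.8 and 32.5. Vim, the mesenchymal intermediate filament, had 3.64 and 16.99. At the other end, the hyaluronan receptor Cd44 had ratios of 1.33 and 1.67. Col1a2 differed between the lines, at 0.778 in KPCA.A and 19.7 in KPCA.B.

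Of the bHLH partners and inhibitors of TWIST proteins, Tcf4 and Id3 were higher in both lines (2 of 6 with enough UMIs in KPCA.A and 2 of 7 in KPCA.B, against 8.39% and 6.95% of all genes). The E protein Tcf4 was 362 against 114 CPM in KPCA.A (ratio 3.18) and 250 against 107 CPM in KPCA.B (2.33). The inhibitor Id3 had ratios of 3.72 and 2.62, while Id1 had 0.727 and 0.578 and Id2 1.03 and 1.08. Id4 was lower in KPCA.B, at a ratio of 0.175. The partner and an inhibitor were therefore both higher in the cells with more Twist1.

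Among 15 related transcription factors, 8 had enough UMIs in each line, and 1 was higher and 1 lower in both, counts near the shares of all genes (8.39% higher and 6.57% lower in KPCA.A, 6.95% and 5.94% in KPCA.B). Hmga2, a chromatin architectural factor, had ratios of 2.58 and 2.38, and the forkhead factor Foxq1 0.240 and 0.409. Prrx2, the paralog of Prrx1, had 1.66 and 0.943. None of 15 cofactors and turnover genes, which include the corepressors Ctbp1 and Ctbp2, the histone deacetylases and the ubiquitin ligases of SNAIL proteins, passed 2-fold in either direction in either line. At the shares of all genes given above, a list of 15 would hold few past 2-fold, so this count does not set these genes apart from all genes.

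Of 23 genes of inducing signals, 7 of 21 were higher in KPCA.A, against 8.39% of all genes, and 3 of 20 in KPCA.B, against 6.95%. The ligand Tgfb2 had ratios of 4.02 and 10.4, Tgfb1 3.47 and 2.33, and Bmp4 2.14 and 5.86. The ligand Wnt5a was past 2-fold in KPCA.A at 3.86 and had 1.89 in KPCA.B. Notch1 had 2.57 and 0.772, and Jag1 2.36 and 0.931. The lowest were the receptor Met, at 0.854 and 0.830, and Ctnnb1, at 0.903 and 0.763. None was 2-fold lower in either line, where 6.57% and 5.94% of all genes were, so a list of this size would hold few.

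The second question was how the factors differ between the lines. Over Epcam-low tumor cells, Zeb1 was similar, at 94.7 CPM in KPCA.A, 103 in KPCA.B and 78.9 in KPCA.C. Zeb2 was 159.8, 86.1 and 151 CPM, lowest in KPCA.B by 1.86-fold against KPCA.A (1.71 to 2.01). Twist1 was 129, 85.0 and 89.9 CPM. KPCA.A was highest for Twist1, and the ratio of KPCA.C to KPCA.B of 1.06 (0.978 to 1.14) was within counting error. None of these 3 factors reached 2-fold between any pair of lines.

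Snai1, Snai2 and Twist2 were lowest in KPCA.B. Snai1 was 6.88 CPM in KPCA.A, 1.30 in KPCA.B and 6.34 in KPCA.C, and KPCA.B was 5.30-fold below KPCA.A (2.89 to 10.8). The ratio of KPCA.C to KPCA.A, 0.922 (0.765 to 1.12), was within counting error. Snai2 was 22.5, 11.1 and 32.3 CPM, and KPCA.B was 2.03-fold below KPCA.A (1.62 to 2.55). Twist2 was 26.2, 4.36 and 40.4 CPM, and KPCA.B was 6.001-fold below KPCA.A (4.30 to 8.61). The Epcam-low cells of KPCA.B include the sub-cluster at a middle Epcam level with little Snai2 described above. Its part in these ratios between lines was not tested.

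Prrx1 was ordered differently, at 17.8 CPM in KPCA.A, 43.4 in KPCA.B and 122 in KPCA.C. The ratio was 6.84 (6.19 to 7.57) for KPCA.C against KPCA.A, 2.81 (2.53 to 3.13) against KPCA.B, and 2.43 (2.11 to 2.81) for KPCA.B against KPCA.A. Prrx1 alone was past 2-fold in KPCA.C against KPCA.A, where 8.07% of genes were higher and 6.64% lower. Against KPCA.B, 4 factors were higher in KPCA.C (Snai1, Snai2, Twist2 and Prrx1), where 11.1% of genes were higher and 11% lower. In KPCA.B against KPCA.A, 1 was higher, where 7.30% of genes were, and 3 were lower, where 7.08% were. The comparisons share libraries and are given side by side.

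**Figure D3:**
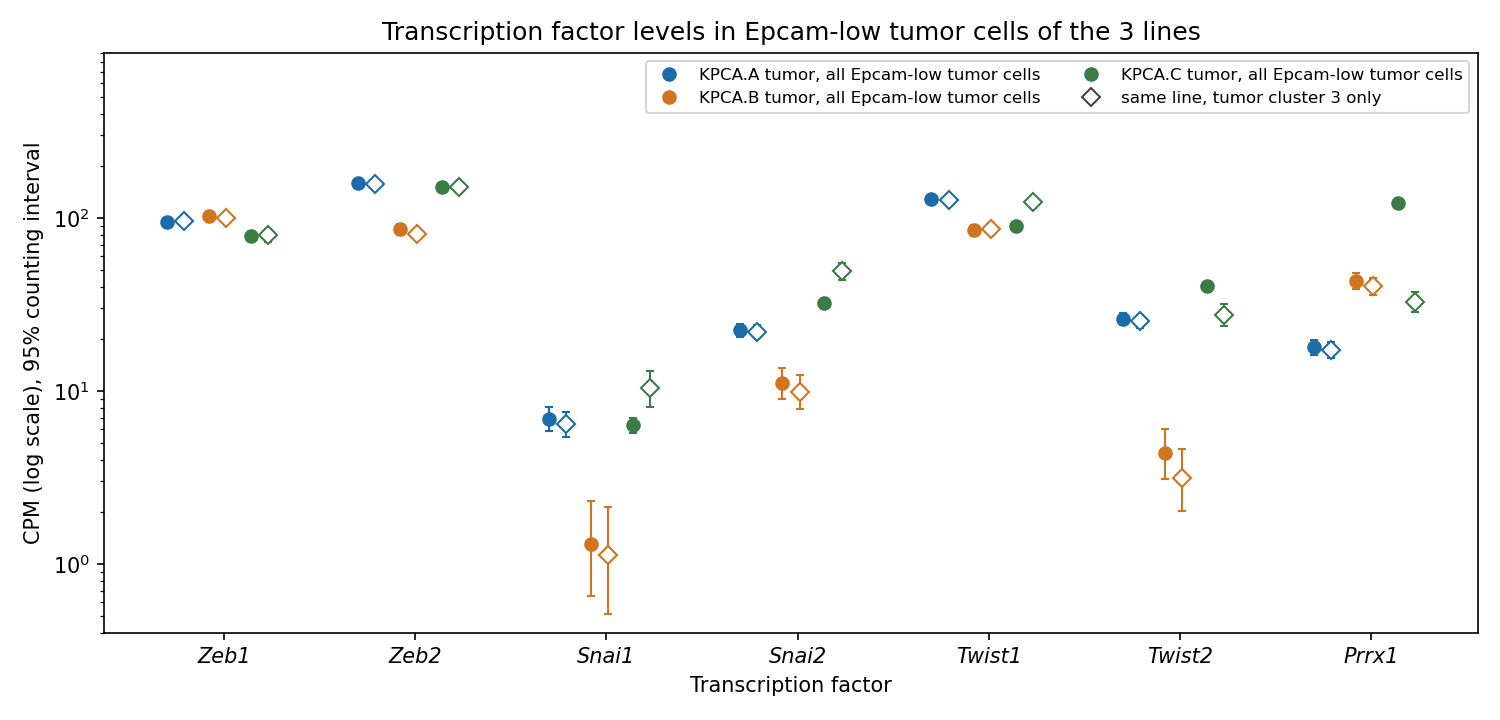
Level of each factor (CPM, log axis) in Epcam-low tumor cells of the 3 lines as filled points, with the same for the 1 tumor cluster that all lines share as open diamonds, and bars for the 95% counting interval. KPCA.B lies lowest for Snai1, Snai2 and Twist2, and Prrx1 in KPCA.C moves from 122 to 32.6 CPM when only the shared cluster is read.

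Different clusters held most tumor cells of the lines. The shared cluster held 562 Epcam-low cells of KPCA.A, 206 of KPCA.B and 105 of KPCA.C, a second held 585 cells of KPCA.C against 13 and 7, and a cycling one held 278 cells of KPCA.C against 12 and 5. Within the shared cluster Prrx1 was 17.3, 40.2 and 32.6 CPM. KPCA.C against KPCA.B was then 0.810 (0.679 to 0.964), the opposite direction, and against KPCA.A 1.89 (1.59 to 2.23), short of 2-fold. Snai2 in that cluster was 22.0, 9.87 and 49.2 CPM, with KPCA.C 2.23-fold above KPCA.A. Snai1 was 6.43, 1.12 and 10.4 CPM, the KPCA.B value from 9 UMIs, and so KPCA.B was lowest for both SNAIL genes there. The shared cluster holds most Epcam-low cells of KPCA.A and KPCA.B, so for that pair these are largely the same cells.

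Inside KPCA.C, the line's own cluster had 133 CPM of Prrx1 against 32.6 CPM in the shared cluster, a ratio of 4.08 (3.56 to 4.70). No other factor was past 2-fold there, where 6.90% of genes were higher and 4.79% lower. Snai2 was 28.6 against 49.2 CPM (ratio 0.582). In cycling against other Epcam-low cells of KPCA.C no factor reached 2-fold, where 5.10% of genes were higher and 3.08% lower. Zeb2 was 119 in cycling and 169 CPM in other cells (ratio 0.707), Snai1 4.51 and 7.41 CPM (0.609), and Prrx1 133 and 116 CPM.

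Prrx1 is also a fibroblast gene, and the sum of 6 fibroblast markers in Epcam-low cells was 38.8 CPM in KPCA.A, 93.2 in KPCA.B and 273 in KPCA.C, the order of Prrx1. When fibroblast RNA was taken off by Dcn, the log2 ratio of Prrx1 moved from 2.77 to 2.68 for KPCA.C against KPCA.A, from 1.49 to 1.44 against KPCA.B, and from 1.28 to 1.23 for KPCA.B against KPCA.A. In Epcam-low tumor cells without any UMI of Dcn, Lum, Pdgfra, Col14a1 or Ptprc it was 2.23, 2.02 and 0.21. Dpt and other markers were not filtered on. Over all Epcam-low clusters, KPCA.C was past 2-fold against both lines under both measures, and KPCA.B against KPCA.A was not in the second. The part of fibroblast RNA in these ratios was not tested.

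Over all tumor cells, Epcam-high ones included, Prrx1 alone was past 2-fold in KPCA.C against KPCA.A (ratio 8.90), where 8.30% of genes were higher and 8.77% lower. In KPCA.C against KPCA.B 5 factors were higher, with Zeb2 added at 2.27, where 11.3% of genes were higher and 13.3% lower. In KPCA.B against KPCA.A, Prrx1 was higher (2.41), where 7.95% of genes were, and Snai1, Snai2 and Twist2 were lower, where 6.88% were. Epcam-high cells could be compared between KPCA.B and KPCA.A. The 4 factors with enough UMIs (Zeb1, Zeb2, Twist1 and Twist2) were all lower in KPCA.B, against 6.19% of genes lower and 7.41% higher, by 3.24-fold, 2.60-fold, 2.30-fold and at least 8.93-fold. Zeb1 and Twist1 were thus more than 2-fold lower in Epcam-high cells of KPCA.B than of KPCA.A, while in Epcam-low cells the pair did not reach 2-fold, and the difference between the 2 ratios was not tested.

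Fibroblast-like cells numbered 237 in KPCA.A, 125 in KPCA.B and 172 in KPCA.C, with median depths of 21627, 21208 and 43912.5 UMIs. They expressed all 7 factors, in other proportions than tumor cells. Zeb2 was 416, 358 and 404 CPM, which was 2.60, 4.15 and 2.68 times the level of Epcam-low tumor cells of the same library. The sum of 6 leukocyte markers in fibroblast-like cells was 54.1, 522 and 173 CPM, against 43.98, 119 and 54.4 CPM in Epcam-low cells, highest in KPCA.B where the Zeb2 ratio was largest, and its part in that ratio was not tested. Prrx1 was 213, 167 and 249 CPM, with ratios to tumor cells of 11.9 (10.7 to 13.4), 3.86 (3.37 to 4.43) and 2.04 (1.94 to 2.15). The ratio was smallest in KPCA.C, whose tumor cells had the most Prrx1. Snai1 was 38.0, 12.1 and 43.7 CPM, with ratios of 5.52, 9.35 and 6.88, the second from fewer than 50 UMIs.

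The other 4 factors were lower in fibroblast-like than in Epcam-low tumor cells, with exceptions in KPCA.B. Zeb1 was 42.9, 53.2 and 40.5 CPM, at ratios of 0.453, 0.519 and 0.513. Snai2 was 7.78, 8.76 and 8.84 CPM, at ratios of 0.346, 0.790 and 0.274. Twist1 was 68.2, 49.2 and 61.4 CPM, at ratios of 0.529, 0.579 and 0.683. Twist2 was 11.6, 6.07 and 8.18 CPM, at ratios of 0.442, 1.39 (0.745 to 2.50) and 0.203. Zeb1 and Twist1 were thus higher in Epcam-low tumor cells, and Zeb2, Snai1 and Prrx1 in fibroblast-like cells, in all 3 libraries.

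By the 2-fold rule, 3 factors were higher and 3 lower in fibroblast-like cells of KPCA.A, where 10.8% and 16.2% of genes were. In KPCA.B, 2 of 6 with enough UMIs were higher and none lower, against 11% and 19.5% of genes, and 4 were past 2-fold when the larger fibroblast-like cluster was read alone. In KPCA.C, 3 were higher and 2 lower, against 13.8% and 17.3%. Between lines, the fibroblast-like cells differed in Snai1 alone. It was 3.60-fold higher in KPCA.C than in KPCA.B, where 5.75% of genes were higher, and lower in KPCA.B than KPCA.A by 3.13-fold, where 4.95% were lower. In the other direction, 4.20% and 3.65% of genes passed in these comparisons and no factor did. None of the 7 reached 2-fold in KPCA.C against KPCA.A, where 2.53% of genes were higher and 2.05% lower. Snai1 was thus lowest in KPCA.B in fibroblast-like and in tumor cells.

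The fibroblast-like cells formed 2 clusters. In the smaller one Zeb1 was 83.1 against 34.0 CPM in KPCA.A (ratio 2.44), where 1 of 6 factors with enough UMIs was higher and none lower, with 6.61% of genes higher and 8.29% lower. In KPCA.C it was 71.0 against 29.9 CPM (2.38), and Prrx1 417 against 190.2 CPM (2.19), where 2 of 7 were higher and none lower, with 6.99% of genes higher and 6.42% lower. The larger cluster held 163 CPM of Krt8 and 49.0 CPM of Cdkn2a, and the smaller one 26.6 and 52.4 CPM, which are tumor genes. Their part in the difference was not tested.

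Macrophage-like cells (821 in KPCA.A, 601 in KPCA.B and 1121 in KPCA.C) had Zeb2 at 1161, 1113 and 939 CPM, the highest of any named class in each tumor. The counting intervals were 1132 to 1191, 1090 to 1136 and 923 to 955 CPM. The ratios to Epcam-low tumor cells were 7.27, 12.9 and 6.23. After thinning, 86.0%, 85.5% and 81.6% of these cells had a Zeb2 UMI. Zeb1 was 5.40, 4.67 and 5.55 CPM, lower than in tumor cells by 17.5-fold, 21.98-fold and 14.2-fold, and each of the other 5 factors was at 2.77 CPM or less. Zeb1 was thus higher in Epcam-low tumor cells than in macrophage-like cells, and Zeb2 was lower, in all 3 tumor libraries.

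In the macrophage-like cells, Zeb2 was the 1 factor higher than in Epcam-low cells, where 14.9%, 16.2% and 16.2% of genes were higher. The others with enough UMIs were lower, 6 in KPCA.A, 4 in KPCA.B and 6 in KPCA.C, where 31.9%, 29.4% and 33.4% of genes were lower. Between the tumors no factor passed 2-fold in these cells, with Zeb1 and Zeb2 alone having enough UMIs, where 2.63%, 6.41% and 6.01% of genes were higher and 1.58%, 5.53% and 5.68% lower (KPCA.C against KPCA.A, KPCA.C against KPCA.B, and KPCA.B against KPCA.A). Zeb2 was lower in KPCA.C by 1.24-fold against KPCA.A (1.199 to 1.28). Among macrophage-like clusters in the tumors it ranged from 534 CPM in KPCA.C cells of a cluster led by Chil3 and Retnla to 1445 CPM in KPCA.A cells of a cluster led by Ccl24 and Arg1.

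**Figure D4:**
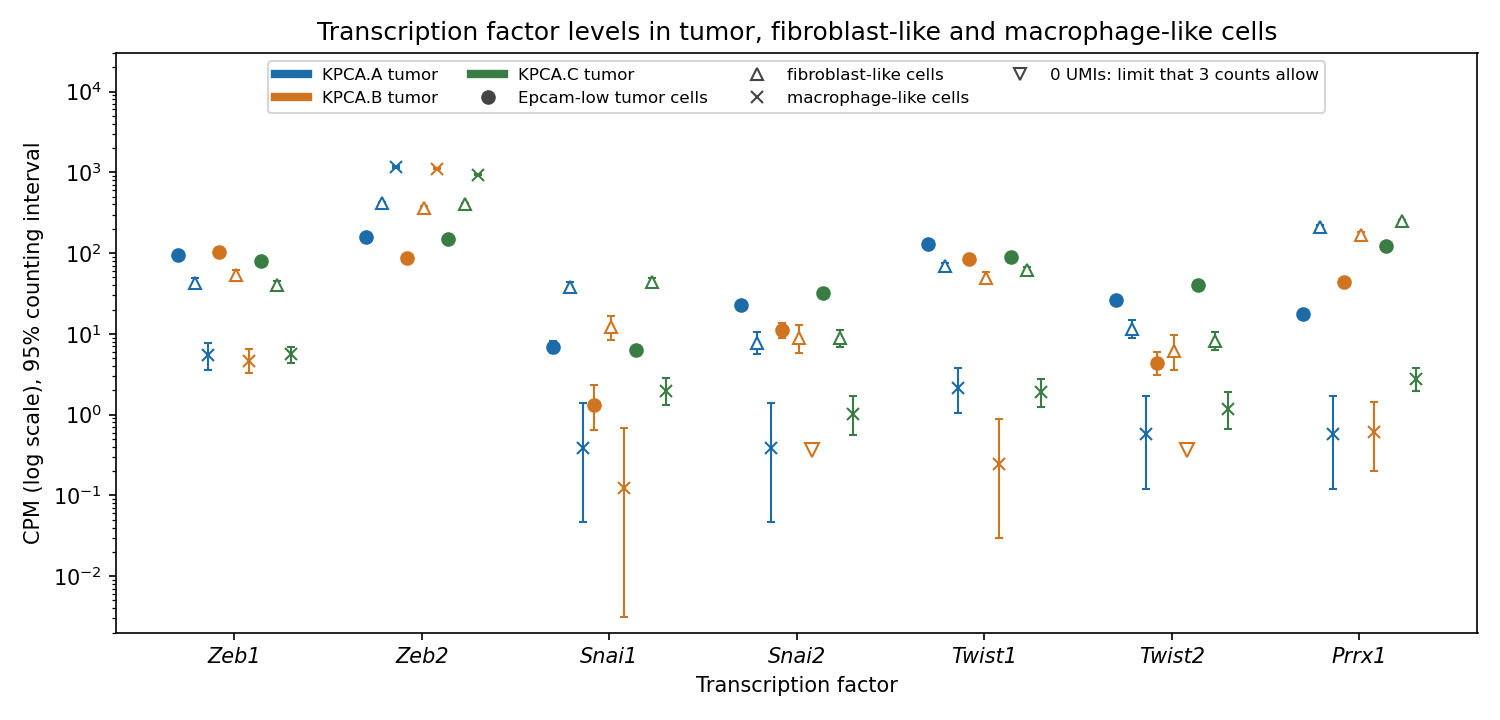
Level of each factor (CPM, log axis) in Epcam-low tumor cells, fibroblast-like cells and macrophage-like cells of the 3 tumor libraries, with bars for the 95% counting interval and a triangle for the limit that 3 counts allow where no UMI was found. Zeb2 is highest in macrophage-like cells, Snai1 and Prrx1 in fibroblast-like cells, and Zeb1 and Twist1 in tumor cells.

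Ascites held 2752 macrophage-like cells at a median depth of 2088 UMIs. Zeb2 there was 325 CPM (311 to 339), which was 3.57-fold lower than in KPCA.A, 3.43-fold lower than in KPCA.B and 2.89-fold lower than in KPCA.C. In the same comparisons 40.0%, 41.9% and 39.8% of genes were lower and 9.19%, 8.26% and 7.13% higher, and the median log2 ratio of all genes was -0.57, -0.58 and -0.52. Scaled by the median gene instead, the log2 ratio of Zeb2 moved from -1.84, -1.78 and -1.53 to -1.11, -1.01 and -0.80, and so no longer reached 2-fold against KPCA.C. In cells thinned to 1000 UMIs it was -1.19, -1.34 and -1.11. Zeb1 was 1.49 CPM in ascites, 3.72-fold lower than in KPCA.C (1.92 to 8.07), with fewer than 50 UMIs in the other pairs. Within the ascites, Zeb2 was 312, 259 and 476 CPM in the 3 macrophage-like clusters. Age, site, depth and Cell Ranger version differed together with the group, and cannot be told apart.

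Among the remaining classes with at least 50 cells, Zeb1 was highest in endothelial-like cells, at 172 CPM in KPCA.A and 161 CPM in KPCA.B. Snai1 was 30.2 and 14.5 CPM there and Snai2 35.8 and 47.5 CPM, while neither Twist1 nor Twist2 had a UMI. Zeb2 was 7.54 and 35.1 CPM in the same cells. Endothelial-like cells therefore paired high Zeb1 with little Zeb2, the reverse of macrophage-like cells.

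Lymphoid classes had both ZEB genes. Zeb1 was 91.2 and 112 CPM in T cell-like cells of KPCA.B and KPCA.C, and Zeb2 121 and 95.7 CPM. B cell-like cells had 82.7 and 74.6 CPM of Zeb1 and 296 and 301 CPM of Zeb2, and NK cell-like cells of KPCA.B 108 and 266 CPM. Plasma cell-like cells of KPCA.B were lower in both, at 24.9 CPM of Zeb1 and 17.2 CPM of Zeb2. The SNAIL, TWIST and PRRX1 genes were at 6.22 CPM or less in all lymphoid classes, from few UMIs. In neutrophil-like cells of KPCA.A Zeb2 was 361 CPM, and both ZEB genes were thus found well outside tumor and fibroblast-like cells. Duct-type epithelial cells of KPCA.A, with Epcam at a high level and little Cdkn2a, had 17.2 CPM of Zeb1, 25.1 of Zeb2 and 7.93 of Twist1, with 0 UMIs of Snai1, Twist2 and Prrx1.

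**Figure D5:**
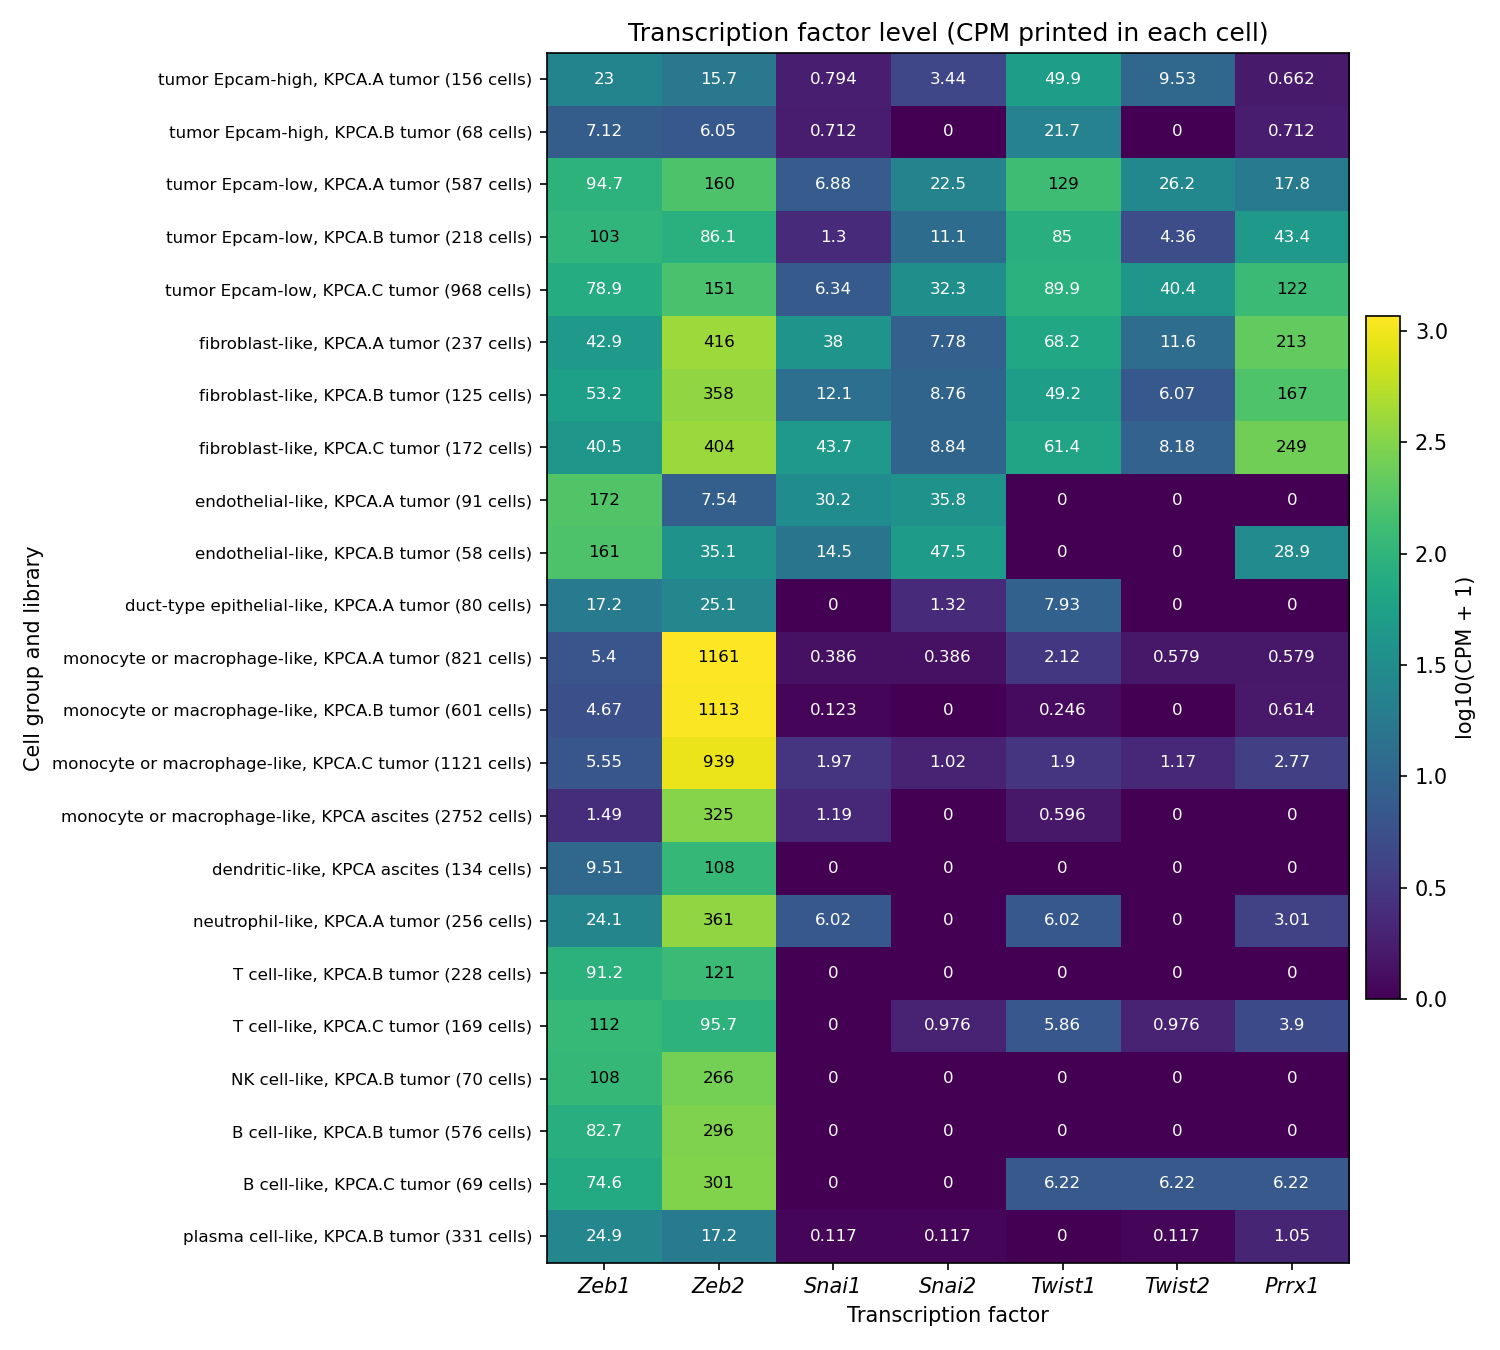
Level of the 7 factors (colour for log10 of CPM + 1, with CPM printed) in each cell class and library with at least 50 cells. In Epcam-low tumor and fibroblast-like rows, Twist1 is at 49.2 CPM or more and Prrx1 at 17.8 CPM or more. Twist1 is also 49.9 CPM in Epcam-high cells of KPCA.A, and Prrx1 28.9 CPM in endothelial-like cells of KPCA.B. Twist2 is dimmer, at 4.36 to 40.4 CPM in Epcam-low tumor and 6.07 to 11.6 CPM in fibroblast-like rows. Zeb1 and Zeb2 are spread over lymphoid, endothelial and myeloid rows.

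Over 24 cell classes and libraries, the genes whose log2(CPM + 1) followed each factor most closely were ranked by Pearson's r among 11099 genes, as a description. The units share libraries and depth, and no p is given. Prrx1 was most like Col5a1 (0.97), Fbn1 (0.95) and Col6a3 (0.95), which encode matrix proteins. Twist1 was most like Steap1 (0.96), Steap2 (0.96) and Il33 (0.96), and Twist2 like Fosl1 (0.93), Bdnf (0.89) and Pwwp3b (0.89). Snai1 was most like Col15a1 (0.93), Ppic (0.92) and Apln (0.89), and Snai2 like Stc1 (0.95), Aqp1 (0.95) and Apcdd1 (0.94). Zeb1 had the weaker likenesses of Itgb3 (0.82), H2-Q4 (0.81) and Ets1 (0.81). Zeb2 was most like its antisense neighbour Zeb2os (0.83), whose reads cannot be told apart from its own without strand, then Ctsc (0.80) and Slc7a2 (0.79).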

How the data were processed

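Droplet 3' single-cell RNA libraries were compared, 1 per group. The deposited matrices hold raw UMI counts for each gene and barcode. Per the file headers, the authors made the tumor matrices with Cell Ranger 4.0.0 and the ascites matrix with 3.0.2. Per the submitters' processing notes Cell Ranger 3.1.0 and mm10 were used. Identifiers, symbols and barcodes are in further deposited tables of other values. The labels name the single cell 3' v2 protocol, and the files hold 5703, 3358 and 4110 barcodes for the 3 tumors in turn and 3118 for ascites.

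Cells needed at least 300 genes, 500 UMIs and at most 15% mitochondrial UMIs (2648, 2586, 3098 and 2921 kept). Scrublet marked 22 cells (0.1955%) and so has not worked, and doublets remain. Log values of counts at 10000 per cell were used, and all libraries were clustered together without integration and without the 7 factors (2000 variable genes, 30 components, 15 neighbours, Leiden resolution 1, seed 1). Clusters were named by at least 3 markers among 50 leading genes. The tumor limits, and the exclusion of the low-depth cluster with tumor keratins, were chosen with the data in view. The Epcam limit of 100 CPM and the Mki67 limit of 150 CPM for cycling were read on whole clusters.

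For each class in each library, summed UMIs were turned into CPM over 30406 shared genes, which hold 99.5% to 99.9% of UMIs. Intervals are exact Poisson for levels, Clopper-Pearson for shares and conditional for ratios. A group at 0 was given 3 counts over the group. Classes needed 50 cells per library. The named genes are the 7 factors and Epcam, up to 4 genes of each list (the 2 highest and 2 lowest log2 ratios) and the 3 genes most like each factor. Cdh1, Vim, Tcf4 and the further signal, Id and promoter genes were named after their values were seen. List medians add 5 CPM to each level. Members and lists were chosen with earlier results of these data known. Alternatives changed the cell filter, scaling, clustering, Epcam limit, depth and other cells' RNA. The summing and interval steps were tested on simulated data.

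Tools were scanpy 1.11.5, anndata 0.12.19, leidenalg 0.10.2, igraph 0.11.9, scikit-learn 1.9.0, scipy 1.17.1, numpy 2.4.6, pandas 2.3.3 and matplotlib 3.10.9 in python 3.11.15.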

Additional observations from a re-analysis of the deposited data

Results flagged for a closer look

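Zeb2 differed in opposite directions between KPCA.C and KPCA.B depending on the cell class. The log2 ratio was 0.81 in Epcam-low tumor cells (ratio 1.75, 1.62 to 1.89) and 0.18 in fibroblast-like cells (1.13, 1.05 to 1.21), but -0.25 in macrophage-like cells (0.844, 0.821 to 0.867). Prrx1 in KPCA.B against KPCA.A had a log2 ratio of 1.28 in Epcam-low tumor cells (2.43, 2.11 to 2.81) and -0.35 in fibroblast-like cells (0.786, 0.707 to 0.874). With 1 library per line, the difference between these ratios was not tested.

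The low-depth cluster with tumor keratins was left out of the comparisons and held factor UMIs above the limit that a count of 0 allows. Zeb1 there was 48.0 CPM in KPCA.A (28.4 to 75.8), 73.7 in KPCA.B (38.1 to 129) and 28.3 in KPCA.C (20.02 to 38.8). Zeb2 was 155 CPM (117 to 199.8), 98.3 (56.2 to 159.7) and 74.4 (60.6 to 90.5), and Twist1 72.0, 117 and 58.8 CPM. Prrx1 was 13.3 CPM (4.33 to 31.1), 36.9 (13.5 to 80.3) and 49.1 (38.0 to 62.5), from 5, 6 and 66 UMIs. The interval of KPCA.B overlapped those of both other lines, so its place in the order is not shown. Twist2 was 16.0 CPM in KPCA.A and 22.3 CPM in KPCA.C, and Snai2 18.6 CPM in KPCA.C. Adding the cluster to the tumor cells left all 93 factor ratios within their counting error.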

How the results depend on the processing

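Of 1300 log2 ratios of the factors recomputed under other settings, 1065 stayed within their counting error, 233 moved and 2 changed direction. Those 2 were Prrx1 in KPCA.C against KPCA.B, over Epcam-low and over all tumor cells, at -0.30 when only the shared tumor cluster was read, where KPCA.C has 105 cells. Of 225 counts and ascites values, 197 stayed the same. Factors higher in Epcam-low cells numbered 4 in KPCA.A and 3 in KPCA.B by the share of thinned cells, where several factors had 0 UMIs in Epcam-high cells, and 3 in KPCA.B when Epcam was read per cell. Factors past 2-fold numbered 2 in KPCA.C against KPCA.A with fibroblast RNA taken off, 2 over all tumor cells by thinned shares, and 3 in KPCA.C against KPCA.B over all tumor cells in the shared cluster alone. In fibroblast-like against tumor cells they numbered 4 in KPCA.B with the larger cluster alone or by the mean over cells, and 3 in KPCA.C by thinned shares. The share of all genes past 2-fold was not computed under these settings. The log2 ratio of Zeb2 in ascites against KPCA.A was -1.47 with a looser cell filter, -1.93 with a stricter one and by the mean over cells, -1.11 by median-of-ratios scaling, -1.73 with the factors allowed in clustering, -1.75 at resolution 0.5 and -1.19 in thinned cells. Against KPCA.B these were -1.35, -1.88, -1.86, -1.01, -1.61, -1.70 and -1.34. Against KPCA.C it was -1.20 with the looser and -1.65 with the stricter filter, -1.61 by the mean over cells, -0.80 by median-of-ratios scaling and -1.11 in thinned cells. The direction was the same in all of these, and the cause of the movement was not tested. The shared cluster, the larger fibroblast-like cluster and ascites thinning were chosen after seeing the data. At resolution 0.5, Epcam-low and Epcam-high cells of KPCA.A and KPCA.B merged, and comparisons that need the split were not run there, nor was the smaller fibroblast-like cluster in KPCA.B (30 cells). No paired analysis was possible because each group had 1 library. Snai1 and Twist2 in KPCA.B, and the factors other than Zeb2 in ascites, rest on few UMIs.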

Other observations

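Barcodes left out by the cell filter also held factor UMIs. In KPCA.A, 3055 barcodes were left out, 3030 of them over the mitochondrial limit, and their summed UMIs held 40.2 CPM of Zeb1, 193 of Zeb2, 41.8 of Twist1 and 13.3 of Prrx1. In KPCA.C, 1012 were left out, with 33.1 CPM of Zeb1, 375 of Zeb2, 20.5 of Twist1 and 42.1 of Prrx1.

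Over the 24 cell classes and libraries, Pearson's r of log2(CPM + 1) between factors was highest for Twist1 and Twist2 (0.85), Twist2 and Prrx1 (0.77), Snai1 and Snai2 (0.75) and Twist1 and Prrx1 (0.75). Zeb1 and Zeb2 were not alike, at -0.26, and Zeb2 against Epcam was at -0.60. These are descriptions over units that share libraries and depth.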
